A study of Mus musculus with 18 samples.

Results

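The Cyp2c genes described here are 10 mouse members of a cytochrome P450 subfamily whose best known liver enzymes turn arachidonic acid into epoxides: Cyp2c23, Cyp2c29, Cyp2c37, Cyp2c38, Cyp2c39, Cyp2c50, Cyp2c54, Cyp2c55, Cyp2c68 and Cyp2c70. They were taken by name, not by their response. Each had exactly 1 of the 34945 probe sets that carry a single gene symbol, and all 10 were bright enough to be among the 13221 genes tested. The Cyp2c23 probe set is the only member probe set whose name ends in _s_at, a class that can also detect related transcripts; Cyp2c23 is called Cyp2c44 in older work. Of 5 further Cyp2c genes, Cyp2c65 had 1 probe set, which was too dim to be tested, and Cyp2c40, Cyp2c66, Cyp2c67 and Cyp2c69 were not analysed here.

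The values come from liver of wild-type CD1 mice, measured on 18 Affymetrix arrays, 3 in each of 6 groups. In the prevention model, mice were injected for 1 week with CMPF, a furan fatty acid, at 6 mg/kg per day or with vehicle, and were then fed a high-fat diet (HFD, 60% of energy from fat) for 4 weeks per the sample labels (the series design allows up to 5). Reversal mice were first fed HFD for 6 weeks and only then injected with CMPF at that dose or with vehicle, for 2 weeks. Each model therefore had a group given CMPF and HFD, a group given HFD without CMPF, and a control group on chow. The labels name no transgene, knockout or further agent in any group and do not state the injection given to chow mice outright, and separate animals are not stated for the arrays of any group, so p-values reflect only the spread between arrays, which may be technical. Replicates 2 and 3 of the prevention CMPF group differed by less than any other pair of arrays (SD of 0.102 over 3719 bright genes, against at least 0.277 in the other 152 pairs) and were averaged as 1 sample, which leaves n = 2 in that group. The 2 models sat at different overall levels, with array means from 5.08 to 5.10 in prevention and from 5.25 to 5.26 in reversal, so levels are compared within a model.

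Liver Cyp2c enzymes sit in the endoplasmic reticulum of hepatocytes and take electrons from P450 oxidoreductase. Epoxygenases among them convert arachidonic acid into epoxyeicosatrienoic acids, lipid signals that soluble epoxide hydrolase, encoded by Ephx2, breaks down to diols. The family has diverged in mouse: Cyp2c29, Cyp2c38 and Cyp2c39 are known as epoxygenases and Cyp2c39 also hydroxylates retinoic acid, Cyp2c37 mainly hydroxylates arachidonic acid, Cyp2c50 and Cyp2c54 act on arachidonic and linoleic acid, and Cyp2c70 makes the muricholic bile acids of rodents. Several are inducible through the xenobiotic receptors CAR and PXR, and Cyp2c29 and Cyp2c37 are richest around the central vein. All values below are log2 signals of the deposited table unless a fold is named, and a level is never set against that of another gene, because each probe set has its own brightness.

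The family lies on chromosome 19. In RefSeq's GRCm38.p6 annotation, 9 members form a cluster from 39006940 (start of Cyp2c55) to 40187286 (end of Cyp2c70), and Cyp2c23 stands apart at 44005022 to 44029256. Cyp2c38 (39389556 to 39463103) lies inside the annotated span of Cyp2c39 (39347346 to 39569568) on the opposite strand. RefSeq's promoter table counts from a transcript start, which for Cyp2c38 (39463075) lies 28 bases and for Cyp2c29 (39287085) 41 bases inside the gene's annotated span. The 250 bases before that start are shown for Cyp2c38, for the second listed start of Cyp2c39 and for Cyp2c29, because the first and second of these genes had the clearest shared pattern on the arrays, while Cyp2c29 is a close relative by promoter whose diet effect did not pass the test in either model. Capitals mark bases within runs of at least 10 bases that Cyp2c38 and the second start of Cyp2c39 share exactly. In the Cyp2c29 line they mark bases within such runs shared with Cyp2c38. Runs that overlap are joined, so a capital stretch need not occur whole in the other window. The windows are chr19:39463076-39463325 on the minus strand for Cyp2c38, chr19:39510572-39510821 on the plus strand for Cyp2c39 and chr19:39286835-39287084 on the plus strand for Cyp2c29. The Cyp2c39 start shown (39510822) lies 163476 bases inside that gene's annotated span, while its first listed start (39347346) lies at the span's edge.
Cyp2c38: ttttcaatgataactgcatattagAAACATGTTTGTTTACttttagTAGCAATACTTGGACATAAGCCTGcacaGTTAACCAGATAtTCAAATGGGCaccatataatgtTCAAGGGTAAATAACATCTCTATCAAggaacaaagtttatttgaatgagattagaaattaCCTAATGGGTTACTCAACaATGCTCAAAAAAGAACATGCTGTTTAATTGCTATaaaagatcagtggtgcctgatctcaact
Cyp2c39 start 2: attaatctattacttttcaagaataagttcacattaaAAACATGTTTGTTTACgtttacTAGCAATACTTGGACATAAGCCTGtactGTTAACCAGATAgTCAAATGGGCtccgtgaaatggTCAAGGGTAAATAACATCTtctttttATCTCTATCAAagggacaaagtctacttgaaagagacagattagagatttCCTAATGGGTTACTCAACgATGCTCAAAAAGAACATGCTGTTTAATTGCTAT
Cyp2c29: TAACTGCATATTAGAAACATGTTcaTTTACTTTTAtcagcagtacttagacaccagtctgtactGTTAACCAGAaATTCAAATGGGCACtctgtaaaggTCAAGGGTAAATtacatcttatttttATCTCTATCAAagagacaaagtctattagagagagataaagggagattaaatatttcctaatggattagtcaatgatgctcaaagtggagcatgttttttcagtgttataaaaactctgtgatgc
Identity was counted over all columns of a pairwise alignment, gap columns included. Between Cyp2c38 and the second start of Cyp2c39 it was 71.0% (198 of 279 columns). Between Cyp2c38 and the first start it was 75.8% (201 of 265 columns). The Cyp2c29 window had 68.8% identity with that of Cyp2c38. By this measure, in which gap columns count as differences, the closest pair of all was Cyp2c37 and Cyp2c50, with 84.3%. The order of pairs therefore depends on gaps as well as on base changes.

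The promoter of Cyp2c68 is shown as a contrast, since that gene was lower on HFD in the prevention model, though not in the reversal model. Its window is chr19:39741102-39741351 on the minus strand, and the capitals mark CAAAGTCCA, a sequence bound by the liver factor HNF4A, which begins 77 bases before the start.
Cyp2c68: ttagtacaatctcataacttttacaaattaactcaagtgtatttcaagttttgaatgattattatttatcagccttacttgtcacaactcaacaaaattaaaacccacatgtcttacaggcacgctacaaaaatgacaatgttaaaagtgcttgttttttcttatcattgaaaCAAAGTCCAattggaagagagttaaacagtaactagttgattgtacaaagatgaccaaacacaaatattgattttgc
RefSeq held promoters for 8 of the 10 members, 9 windows in all, and windows of all genes were searched on both strands for 5 short motifs. CAAAGTCCA was present in 2 member windows, Cyp2c68 and Cyp2c70, and in 0.384% of all promoters. The TATA box sequence TATAAA was in 4 member windows (12.4% of all promoters) and the nuclear receptor element AGGTCA in 3 (14%). The STAT5 motif TTCNNNGAA (7.02% of promoters) and the C/EBP motif TTGCGCAA (0.164%) were in 0 of the 9. AGGTCA and CAAAGTCCA were counted independently of any overlap with each other, and a match describes only the letters of these windows.

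The diet comparison asks what HFD did to the family in each model. In the prevention model Cyp2c38 and Cyp2c39 were higher and Cyp2c68 lower on HFD than on chow, and the other 7 members did not pass the test. In the reversal model Cyp2c38, Cyp2c39 and Cyp2c50 were higher on HFD, and again 7 did not pass. Across all genes, limma called 5.57% in the prevention model (1.74% higher and 3.83% lower) and 2.45% in the reversal model (2.17% higher and 0.28% lower) at an adjusted p under 0.05. The median log2 fold change of the 10 members was 0.07 in prevention and 0.13 in reversal, against 0.00 and 0.03 over all genes.

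**Figure D1:**
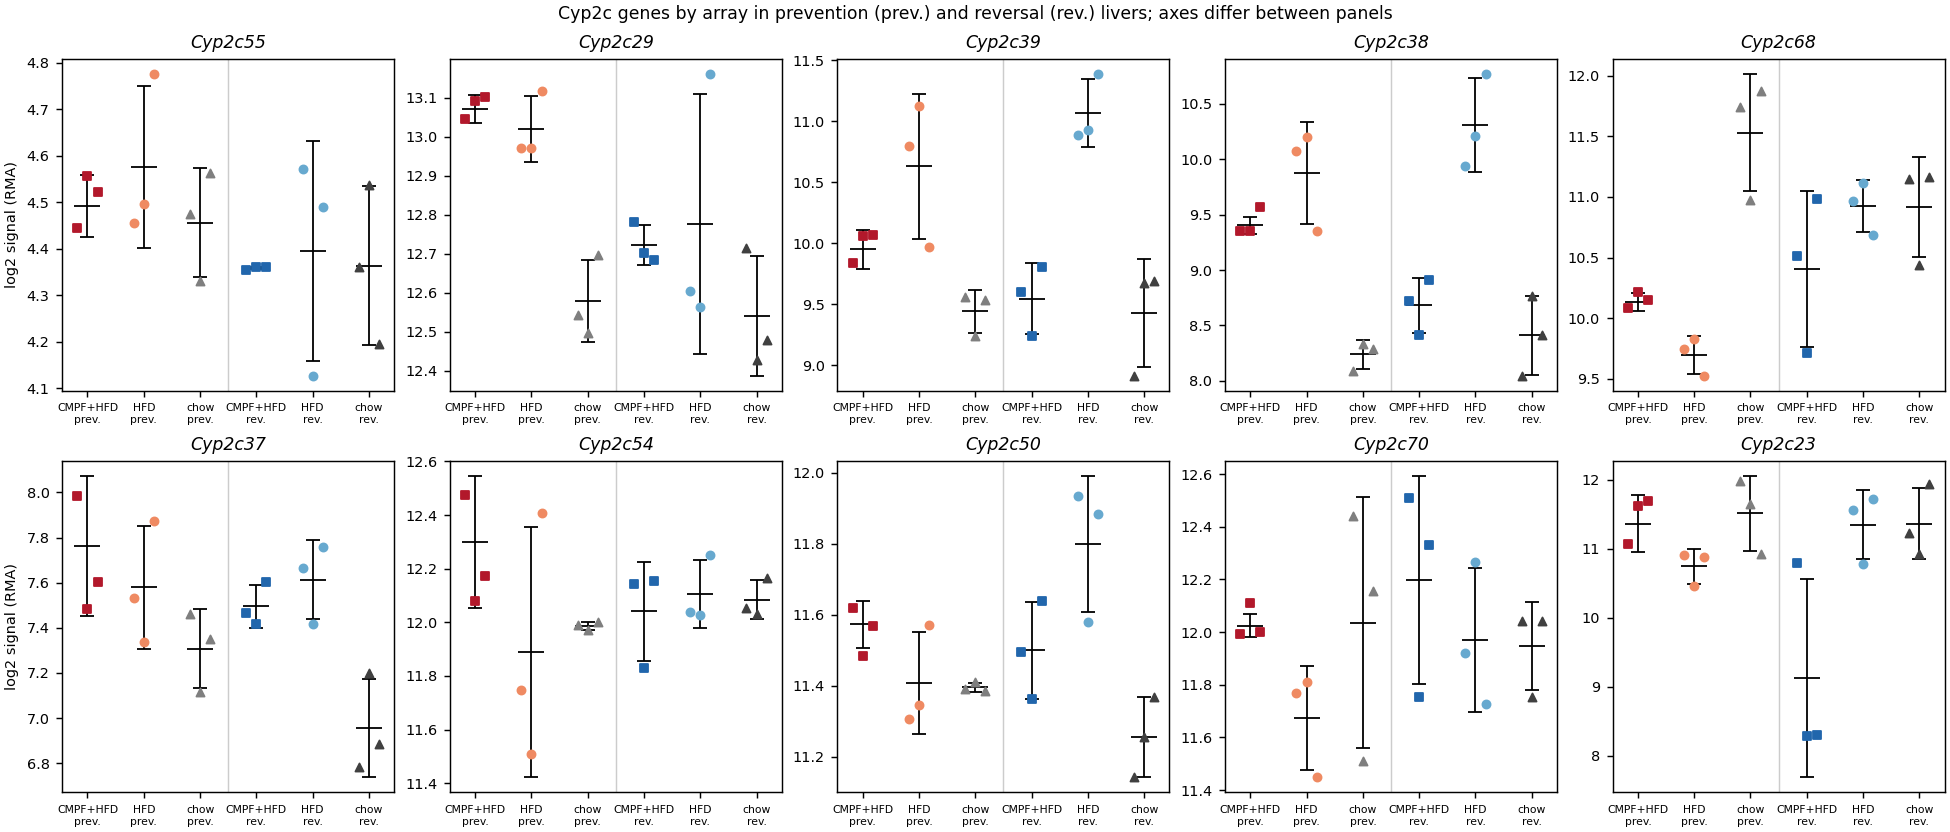
Log2 signal (vertical axis, a separate scale for each gene) of the 10 Cyp2c members on each array, by group (horizontal axis; CMPF on HFD, HFD and chow, left to right within each model). Points are arrays and bars are the mean ± SD of a group, with the near-identical prevention CMPF arrays 2 and 3 drawn as separate points but counted as 1 in the bar. Cyp2c38 and Cyp2c39 have their highest group means on HFD in both models, Cyp2c68 is highest in prevention chow, and Cyp2c23 has 2 low points of 8.29 and 8.31 in the reversal CMPF group.

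Cyp2c38 and Cyp2c39, neighbouring epoxygenase genes, were higher on HFD in both models. In the reversal model, Cyp2c38 read 9.94, 10.21 and 10.77 on the HFD arrays, against 8.05, 8.77 and 8.42 on chow. Every HFD array was above every chow array. The difference was 1.90 ± 0.249 (SE; log2), a 3.73-fold higher signal on HFD (adjusted p = 0.00311, limma), and it ranked 10 by p among the 13221 genes. In the prevention model, Cyp2c38 read 10.07, 10.20 and 9.35 on HFD, against 8.09, 8.33 and 8.29 on chow. The groups again did not overlap, although HFD array 3 stood below the other two HFD arrays. The difference was 1.64 ± 0.249, or 3.11-fold (adjusted p = 0.0105).

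Cyp2c39, which also acts on retinoic acid, moved in the same direction. It read 10.89, 10.93 and 11.39 on reversal HFD, against 8.91, 9.67 and 9.69 on reversal chow. The groups did not overlap and the difference was 1.64 ± 0.277, or 3.12-fold (adjusted p = 0.0116). In prevention it read 10.80, 11.12 and 9.97 on HFD, against 9.56, 9.24 and 9.53 on chow. HFD array 3 was again the lowest of its group and still above all chow arrays, and the difference was 1.19 ± 0.277, or 2.28-fold (adjusted p = 0.0297). The HFD effect of Cyp2c38 was 0.26 larger in reversal than in prevention (adjusted p = 0.647) and that of Cyp2c39 was 0.45 larger (adjusted p = 0.452), neither of which passed the test of the difference. For Cyp2c38 the sign of that difference turned in 3 of 23 alternatives, to -0.12 at the lowest. Both genes passed in reversal under all 18 alternatives run for that comparison, but not in prevention: without HFD replicate 1, chow replicate 1 or chow replicate 3, Cyp2c38 had adjusted p = 0.0508, 0.0626 and 0.0540, and Cyp2c39 had 0.0951, 0.101 and 0.110, and Cyp2c39 had 0.0926 without HFD replicate 2.

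The CMPF comparison in the reversal model asks what the injections did to mice already on HFD. Cyp2c38 was lower with CMPF, and it was the only member of the family to pass; it was 1 of 5 genes called in that comparison, 0.0378% of the 13221 (0.0151% higher and 0.0227% lower). At an unadjusted p under 0.05, limma had 4 members of 10 and 4.8% of all genes. Cyp2c38 read 8.72, 8.42 and 8.91 on the CMPF arrays, against 9.94, 10.21 and 10.77 on HFD without CMPF. All 3 CMPF arrays were below all HFD arrays, by a log2 difference of -1.63 ± 0.249, a 3.09-fold lower signal (95% confidence interval -2.16 to -1.09, adjusted p = 0.0381). The call sat close to its threshold: the difference ranged from -1.81 to -1.40 over 19 alternative settings and passed in 8 of them. It was lost without HFD replicate 2 (adjusted p = 0.104), HFD replicate 3 (0.109), CMPF replicate 1 (0.165), CMPF replicate 2 (0.261) or CMPF replicate 3 (0.0986).

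Cyp2c39 read 9.60, 9.24 and 9.81 with CMPF in the reversal model, against 10.89, 10.93 and 11.39 on HFD without it. The groups did not overlap, and the difference of -1.52 ± 0.277 did not pass over all genes (adjusted p = 0.0982). Non-overlap downwards held for 2 members, Cyp2c38 and Cyp2c39, and for 5.04% of all genes. Against reversal chow, Cyp2c38 in the CMPF group differed by 0.27 ± 0.249 (confidence interval -0.26 to 0.81, adjusted p = 0.584) and Cyp2c39 by 0.12 (adjusted p = 0.851), with the groups overlapping in both genes. The HFD and CMPF comparisons of a model share the HFD arrays, so their opposite signs are not independent of each other.

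**Figure D2:**
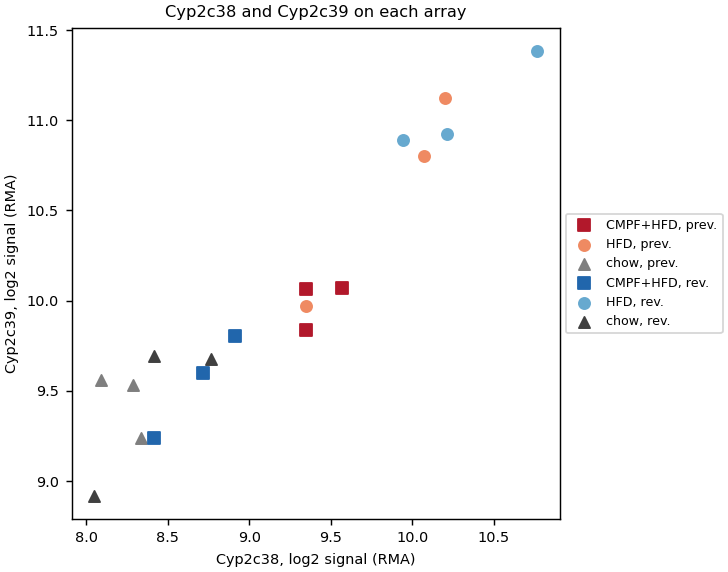
Log2 signal of Cyp2c39 plotted against that of Cyp2c38, 1 point per array, both axes on the log2 scale. Symbols and colours give the group (CMPF on HFD, HFD, chow) and the model; in reversal the 3 HFD arrays lie at the high end of both axes, apart from the CMPF and chow arrays, while in prevention 1 HFD array (9.35 and 9.97) lies among the CMPF arrays.

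In the prevention model, where CMPF was injected before the diet, no member passed the test between CMPF on HFD and HFD. limma called 0 of the 13221 genes (0%) there, and at an unadjusted p under 0.05 it had 1 member of 10 and 8.02% of all genes. The CMPF samples lay wholly above HFD for Cyp2c23, Cyp2c68 and Cyp2c70 (19.7% of all genes) and wholly below it for 0 members (11.1% of all genes). Cyp2c38 read 9.35, 9.35 and 9.57 with CMPF, against 10.07, 10.20 and 9.35 on HFD, a difference of -0.47 ± 0.278 (adjusted p = 0.739). Cyp2c39 read 9.84, 10.06 and 10.07 with CMPF, against 10.80, 11.12 and 9.97 on HFD, a difference of -0.68 ± 0.31 (adjusted p = 0.620). In both genes HFD array 3 lay at or within the range of the CMPF arrays, and the other two HFD arrays lay above it. The CMPF effect on Cyp2c38 was 1.16 ± 0.373 lower in reversal than in prevention, a difference that did not pass (adjusted p = 0.507), so the models were not shown to differ. No member passed the difference of the CMPF effects, in which limma called 0% of genes; at an unadjusted p under 0.05 it had 3 members and 7.93% of genes.

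Cyp2c68 went the other way in prevention and showed no diet difference in reversal. In prevention it read 9.74, 9.83 and 9.53 on HFD, against 11.74, 10.98 and 11.87 on chow. The lowest chow array was above all HFD arrays, an order that held downwards for 2 members, Cyp2c68 and Cyp2c23, and for 17.2% of all genes, and the difference was -1.83 ± 0.299, a 3.55-fold lower signal on HFD (adjusted p = 0.012). In reversal it read 10.97, 11.11 and 10.69 on HFD, against 11.14, 10.44 and 11.16 on chow, which overlap, with a difference of 0.01 ± 0.299 (adjusted p = 0.989). The HFD effect therefore differed between models by 1.84 ± 0.423 (adjusted p = 0.0261), in a comparison in which 11% of all genes were called (8.84% higher and 2.15% lower). With CMPF, Cyp2c68 read 10.08, 10.22 and 10.15 in prevention and 10.51, 9.71 and 10.99 in reversal. Neither differed from HFD beyond the test, at 0.43 (adjusted p = 0.811) and -0.52 ± 0.299 (adjusted p = 1).

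A sign of RNA quality moved with the prevention diet groups. The 3' to 5' index, the log2 signal of the 3' minus the 5' control probe sets of Gapdh and beta-actin, was 2.84 ± 0.303 on HFD and 1.43 ± 0.512 on chow (SD, n = 3 each), and the groups did not overlap (2.66 to 3.19, against 0.97 to 1.98). When the index entered the model as a covariate, the diet difference in prevention was 1.63 for Cyp2c38 (adjusted p = 0.0715), 1.31 for Cyp2c39 (adjusted p = 0.157) and -1.30 for Cyp2c68 (adjusted p = 0.115), and no member passed. The difference of the Cyp2c68 HFD effect between models was then 1.11 (adjusted p = 0.312). In reversal the index was 2.63 ± 0.957 with CMPF, 2.62 ± 0.969 on HFD and 3.15 ± 0.566 on chow, with overlapping ranges. Leaving out HFD replicate 1, chow replicate 1 or chow replicate 3 moved Cyp2c68 in prevention to adjusted p = 0.0531, 0.0712 and 0.0665.

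**Figure D3:**
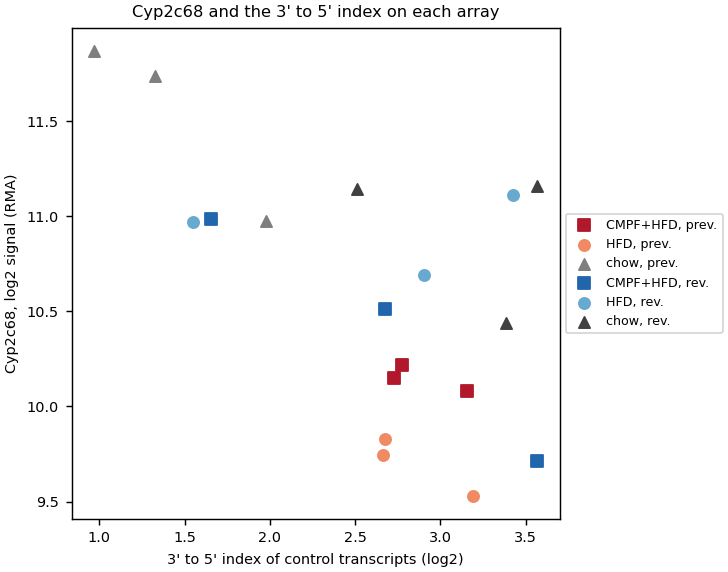
Log2 signal of Cyp2c68 (vertical axis) against the 3' to 5' index (horizontal axis, log2), 1 point per array, with symbols and colours for group and model. The 3 prevention chow arrays have the lowest indices of their model, from 0.97 to 1.98; 2 of them, at 11.74 and 11.87, have the highest Cyp2c68 signals of the 18 arrays, and the other, at 10.98, lies among the reversal arrays.

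Cyp2c50, which acts on arachidonic and linoleic acid, was higher on HFD in reversal. It read 11.94, 11.58 and 11.88 on HFD, against 11.14, 11.26 and 11.37 on chow. The groups did not overlap, and the difference of 0.54 ± 0.117 was a 1.46-fold higher signal (adjusted p = 0.0284). In prevention the diet difference was 0.01 (adjusted p = 0.964), from 11.31, 11.35 and 11.57 on HFD, against 11.39, 11.41 and 11.39 on chow. The difference between models, 0.53 ± 0.165, did not pass (adjusted p = 0.0525); it was 0.15 under quantile normalisation over all arrays (adjusted p = 0.63) and 0.18 under cyclic loess (adjusted p = 0.557), and passed in 6 of 23 alternatives. With CMPF in reversal it read 11.50, 11.36 and 11.64, a difference from HFD of -0.30 ± 0.117 (adjusted p = 0.905). The reversal diet call was lost under quantile normalisation over all arrays (0.34, adjusted p = 0.186), cyclic loess (0.35, adjusted p = 0.171) and with the reversal arrays alone (adjusted p = 0.12), and without chow replicate 1 (0.052) or 2 (0.0712) or HFD replicate 1 (0.115) or 3 (0.0807).

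Cyp2c37 and Cyp2c29, the pericentral members, had HFD arrays above all chow arrays in 1 model each, without passing. Cyp2c37, chiefly a hydroxylase of arachidonic acid, read 7.66, 7.42 and 7.76 on reversal HFD, against 6.78, 7.20 and 6.88 on reversal chow, a difference of 0.66 ± 0.167 (adjusted p = 0.0539) between groups that did not overlap; it passed with all 18 arrays counted separately (adjusted p = 0.0422). In prevention its diet difference was 0.27 (adjusted p = 0.335). Cyp2c29, an epoxygenase, read 12.97, 12.97 and 13.12 on prevention HFD, against 12.54, 12.50 and 12.70 on chow, a difference of 0.44 ± 0.14 (adjusted p = 0.0768) between groups that did not overlap; it passed under cyclic loess (0.62, adjusted p = 0.0341) and with the prevention arrays alone (adjusted p = 0.0374). Its reversal diet difference was 0.24 (adjusted p = 0.325). Upward non-overlap on HFD held for 3 members in prevention (12% of all genes) and 4 in reversal (14.7% of all genes).

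Markers of the pericentral zone moved with the reversal diet comparison, in which 2.17% of all genes were called higher and 0.28% lower. The prevention diet comparison called 1.74% higher and 3.83% lower. Of 12 tested pericentral hepatocyte markers, 6 were higher on HFD in reversal (Glul, Lect2, Gulo, Rgn, Lgr5 and Slc13a3) and 0 lower; their summed level (log2) was 15.32 to 15.47 with CMPF on HFD, 15.50 to 15.60 on HFD and 15.02 to 15.23 on chow. In prevention 1 of 12 was higher (Slc13a3), and 2 of 8 periportal markers were lower (Cyp2f2 and Pck1), with a summed periportal level of 14.18 to 14.28 on HFD and 14.76 to 15.04 on chow. Summed markers of other cell types also stood apart on reversal HFD, at 11.70 to 12.12 against 11.10 to 11.60 on chow for 10 Kupffer cell and macrophage genes (0 passed), 7.99 to 8.33 against 7.74 to 7.94 for 5 T cell genes (1 passed, Themis) and 9.11 to 9.997 against 8.52 to 8.93 for 2 erythroid genes (0 passed). On prevention HFD the T cell sum was 7.58 to 8.06 against 7.47 to 7.57 on chow, and the erythroid sum 8.25 to 8.52 against 7.87 to 8.11. Between CMPF on HFD and HFD in reversal, the pericentral ranges above did not overlap, nor did the T cell sum (7.87 to 7.89 with CMPF, 7.99 to 8.33 on HFD) or the cholangiocyte sum (6.89 to 7.05 with CMPF, 6.81 to 6.83 on HFD). In prevention, the CMPF samples (n = 2) lay above HFD in the pericentral sum, at 15.36 to 15.40 against 15.15 to 15.35. The periportal sum (14.57 to 14.66, against 14.18 to 14.28) and hepatocyte sum (16.76 to 16.78, against 16.65 to 16.75) were also higher. The B cell sum (4.98 to 5.22, against 5.42 to 5.46) and neutrophil sum (up to 7.428, against at least 7.429) were lower. Groups this small often lie apart. Of all single genes, 14.7% lay wholly above chow on reversal HFD, and 12% above and 17.2% below on prevention HFD. With CMPF in prevention 19.7% lay wholly above HFD and 11.1% below, and in reversal 5.04% below. The part of zonation or of other cell types in the Cyp2c results was not tested. In whole liver, more cells of a kind and more RNA per cell cannot be told apart. The 8 tested hepatocyte markers were bright on every array, with a summed level of 16.65 to 17.03 (in prevention 16.65 to 16.75 on HFD and 16.79 to 16.88 on chow), and 0 of them passed between diets or between CMPF and HFD.

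Cyp2c23, an epoxygenase of kidney and liver, set 2 reversal CMPF arrays apart. It read 10.79, 8.29 and 8.31 with CMPF, against 11.56, 10.77 and 11.72 on HFD and 11.23, 10.92 and 11.93 on chow. Arrays 2 and 3 of the CMPF group were lower than all other arrays of the series, which ran from 10.45 to 11.98, while array 1 fell among the others. Against HFD the difference was -2.22 ± 0.542 and did not pass (adjusted p = 0.312, overlapping groups), and against chow it was -2.23 ± 0.542 (adjusted p = 0.0511). Without CMPF replicate 1 the difference from HFD was -3.05 (adjusted p = 0.0165), and without replicates 2 and 3 together it was -0.56. In prevention it read 11.07, 11.62 and 11.69 with CMPF, 10.90, 10.45 and 10.88 on HFD, and 11.98, 11.64 and 10.91 on chow, and no comparison passed there.

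**Figure D4:**
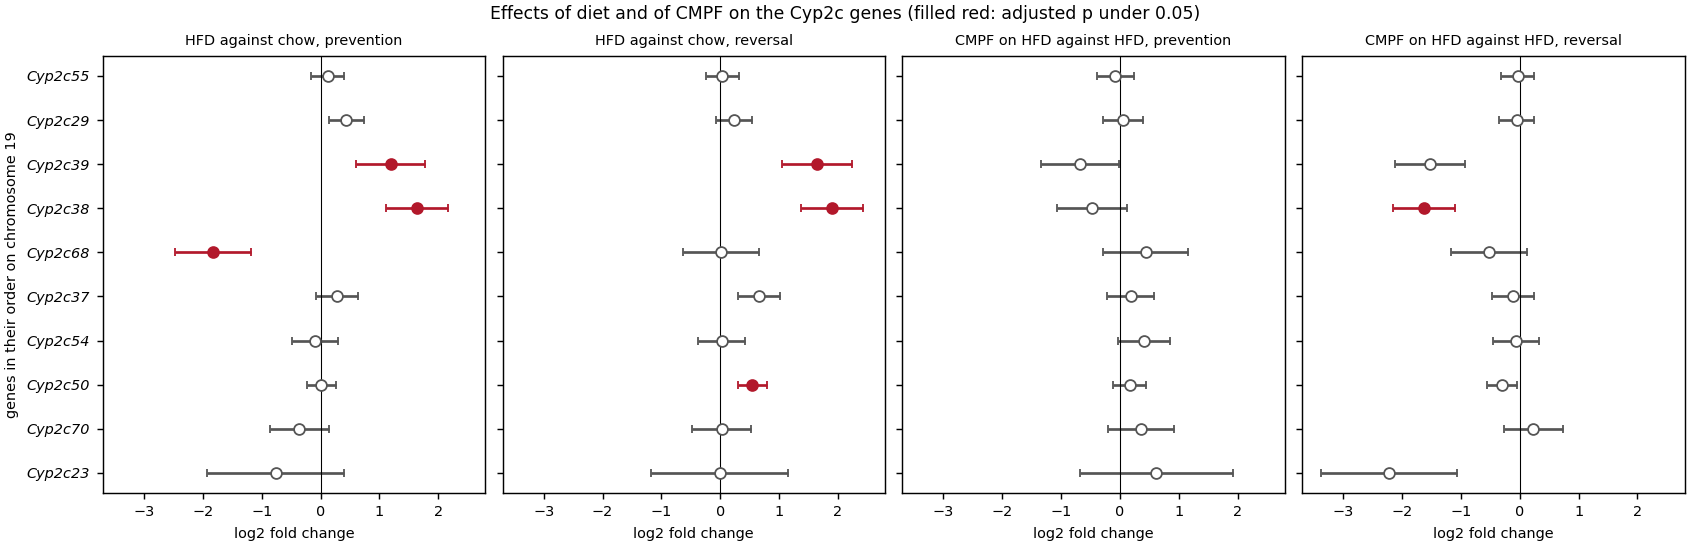
Log2 fold change (horizontal axis) of each Cyp2c member in 4 comparisons, HFD over chow and CMPF on HFD over HFD in each model, with genes in their order on chromosome 19 and bars for the 95% confidence interval. Filled red points have an adjusted p under 0.05: Cyp2c38, Cyp2c39 and Cyp2c68 for HFD in prevention, Cyp2c38, Cyp2c39 and Cyp2c50 for HFD in reversal, none for CMPF in prevention and Cyp2c38 for CMPF in reversal.

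Cyp2c54, Cyp2c55 and Cyp2c70 passed in none of the 8 comparisons. Cyp2c54, a close relative of Cyp2c50 in what it oxidises, ranged from 11.51 to 12.47 over the 18 arrays, and its diet difference was -0.10 in prevention and 0.02 in reversal. Cyp2c70, the muricholic acid enzyme, ranged from 11.45 to 12.51, with diet differences of -0.36 and 0.02. Cyp2c55, best known from the colon, was dim, at 4.13 to 4.78, with diet differences of 0.12 and 0.03, so its probe set can show little. For CMPF on HFD against HFD, in prevention and then reversal, Cyp2c54 differed by 0.41 and -0.06, Cyp2c70 by 0.35 and 0.23, and Cyp2c55 by -0.08 and -0.04.

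CMPF on HFD was also set against chow, which asks how far the treated livers stood from those of mice on chow. No member passed in either model with limma. In prevention 0% of all genes were called, and at an unadjusted p under 0.05 there were 4 members and 9.99% of genes; Cyp2c38 differed by 1.17 ± 0.278 (adjusted p = 0.276) and Cyp2c68 by -1.39 ± 0.334 (adjusted p = 0.276). The index was 2.75 to 3.16 with CMPF there, wholly above the 0.97 to 1.98 of chow, and with it in the model the Cyp2c68 difference was -0.82 (adjusted p = 0.74). In prevention the groups did not overlap for 7 members: Cyp2c29, Cyp2c37, Cyp2c38, Cyp2c39, Cyp2c50 and Cyp2c54 lay wholly above chow, as did 17.3% of all genes, and Cyp2c68 wholly below, as did 14.4%. In reversal 2% of genes were called (1.61% higher and 0.393% lower), and at an unadjusted p under 0.05 there were 2 members and 18% of genes; the groups did not overlap for Cyp2c37, at 0.54 (adjusted p = 0.111; 10.8% of all genes lay wholly above chow), and for Cyp2c23, given above (7.66% wholly below).

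The genes around the epoxygenases are given from lists of the pathway. List genes, here and below, and marker genes were read from the main fit only. On HFD, 1.74% of all genes were called higher and 3.83% lower in prevention, and 2.17% and 0.28% in reversal. The 3' to 5' index differed between the prevention diet groups, and its part in the prevention calls of these genes was not tested. The list of electron donors and partners had 5 tested genes, Cyb5a, Cyb5b, Cyb5r3, Pgrmc1 and Pgrmc2. Por, which encodes P450 oxidoreductase, was listed but not among the genes tested. Of the 5, 0 passed for HFD in prevention and 1 in reversal. This was Cyb5b, an outer mitochondrial membrane cytochrome b5, which was 0.92 ± 0.142 higher (adjusted p = 0.0071). Among 5 tested epoxide-handling genes, Ephx2, the soluble hydrolase that removes epoxyeicosatrienoic acids, was 0.64 lower on HFD in prevention (difference -0.64 ± 0.111, adjusted p = 0.0121), and 0 passed in reversal. None of 4 tested Cyp2j genes, the other epoxygenase family, passed for HFD. Cyp2j5 was at -0.76 in prevention (adjusted p = 0.0524) and 0.58 in reversal (adjusted p = 0.144). Its diet effect differed between models by 1.35 (adjusted p = 0.025), in a comparison that called 11% of all genes. Also called there were the electron donor list's Cyb5b (0.77) and Pgrmc1 (0.58) and the epoxide list's Acsl4 (1.87). From the release and reacylation list, Pla2g12a (1.75) and Mboat7 (1.09) were called there too. None of 8 genes of arachidonic acid release and reacylation passed in either diet comparison; the smallest p belonged to the phospholipase gene Pla2g12a in prevention (-1.20, adjusted p = 0.0657) and to the lysosomal phospholipase gene Pla2g15 in reversal (0.74, adjusted p = 0.0846).

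In the competing branches, 2 of 9 tested cyclooxygenase and lipoxygenase genes rose on HFD in prevention (1.74% of all genes were called higher). They were Ptges2, a prostaglandin E synthase, by 0.49 (adjusted p = 0.0394) and Ptgis, the prostacyclin synthase, by 0.53 (adjusted p = 0.041). The cyclooxygenase genes Ptgs1 and Ptgs2 and the lipoxygenase genes Alox12 and Alox15 were listed but not among the genes tested. In reversal 0 of the 9 passed, but Ptges2 differed there by 0.49 (adjusted p = 0.0523, limma) without overlap, as 14.7% of all genes did upwards. Its diet effect was not shown to differ between models (0.01, adjusted p = 0.983). That of Ptgis did differ, by -0.71 (adjusted p = 0.0362), with -0.18 in reversal. So did that of Lta4h, by 1.44 (adjusted p = 0.0287), in a comparison that called 11% of all genes. Of 7 tested Cyp4 genes, whose enzymes include the omega-hydroxylases of arachidonic acid, 0 passed in prevention and 1 in reversal. This was Cyp4a31, which differed by -2.20 (adjusted p = 0.0472), where 0.28% of all genes were called lower. By the test of the difference, the diet effect of 1 of the 7 was lower in reversal than in prevention.

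Genes that share regulators with the family were also counted. For the counts of this paragraph, the shares of all genes called on HFD were 1.74% higher and 3.83% lower in prevention. In reversal these shares were 2.17% and 0.28%. Of 16 tested genes listed as CAR and PXR targets, 4 were higher on HFD in prevention and 0 lower. Cyp2b9 rose by 3.68 (adjusted p = 0.0105) and Cyp2b13 by 3.35 (adjusted p = 0.0178). The glutathione transferase Gstm3 rose by 1.95 (adjusted p = 0.0324) and the export pump Abcc3 by 0.63 (adjusted p = 0.0452). In reversal 2 were higher, Cyp2b9 by 5.19 (adjusted p = 0.000765) and Cyp2b13 by 3.40 (adjusted p = 0.0181). Of 19 tested receptors and transcription factors, the nuclear receptor Rora differed by -0.60 on HFD in prevention (adjusted p = 0.0217), and 0 passed in reversal. Of 11 growth hormone signalling genes, the hormone gene Igf1 differed by -0.75 in prevention (adjusted p = 0.0331) and the receptor gene Ghr by 0.51 in reversal (adjusted p = 0.0252). Of 10 bile acid synthesis genes, Cyp7b1 (-1.40, adjusted p = 0.0417) and Amacr (-0.98, adjusted p = 0.0428) were lower on HFD in prevention and 0 passed in reversal.

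For CMPF on HFD against HFD, 0 genes of these lists passed in either model. In reversal, Cyp2b9 and Cyp2b13, listed CAR and PXR targets, had CMPF arrays all below the HFD arrays. So did Cyp2c38, Cyp2c39 and 5.04% of all genes. The Cyp2b9 and Cyp2b13 differences were -3.24 ± 0.561 (adjusted p = 0.0858) and -3.54 ± 0.648 (adjusted p = 0.0982). The median over the 16 tested genes of the CAR and PXR list was -0.10. Ptgis differed by 0.77 ± 0.137 (adjusted p = 0.0903), again without overlap but upwards. Nr1i2, which encodes PXR, differed by 0.79 ± 0.167 (adjusted p = 0.172) with all CMPF arrays above the HFD arrays. The share of all genes with this upward order is not given here. For Ephx2 the difference was 0.33 ± 0.124 in prevention (adjusted p = 0.527). Nr0b2, the small heterodimer partner, differed there by 1.45 (adjusted p = 0.252) and Cyp7b1 by 1.46 (adjusted p = 0.379).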

How the data were processed

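Liver RNA was hybridised to Affymetrix arrays, and the authors deposited log2 values of 45101 probe sets made by RMA with Affymetrix Expression Console 1.1, per the submitters' processing notes and the labels. Which arrays were normalised together is not given in the sources used here. Of the probe sets, 34945 carried 1 gene symbol, 932 several and 9160 were unlisted. The 40% dimmest were dropped, a gene was read from its brightest probe set, and 13221 genes were tested. limma 3.58.1 in R 4.3.3 fitted 1 linear model to the 6 groups, with 17 samples and 11 residual degrees of freedom, and Benjamini-Hochberg adjustment over all genes (threshold 0.05). The pipeline was tested on simulated data. Arrays give no depth; their number limits the precision. Promoters and positions are RefSeq's (GRCm38.p6). Alternatives were other filters, probe set rules, normalisations, a replicate block, the 3' to 5' index as a covariate and leaving out each array; leaving out reversal CMPF arrays 2 and 3 together was chosen after seeing the data. All 10 members were described in every comparison, and list genes by the test, up to 4, otherwise the smallest p as values. The members and lists were chosen with earlier results of these data known.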

Additional observations from a re-analysis of the deposited data

Results flagged for a closer look

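Cyp2c68 was the only member whose HFD effect differed between the models by the test of the difference itself: 1.84 ± 0.423 (log2, reversal minus prevention, adjusted p = 0.0261, limma). On HFD against chow it differed by -1.83 in prevention and by 0.01 in reversal. The difference was 1.11 (adjusted p = 0.312) with the 3' to 5' index as a covariate, and the index differed between the prevention diet groups; its part in the result was not tested further. The difference passed in 18 of 23 alternatives.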

How the results depend on the processing

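Of 1524 values of members under the alternatives, 1472 kept their side of the threshold, 36 lost a call and 16 gained one, and 0 changed sign while passing. The sign changed in 75 values that passed in neither setting. The largest main-fit value whose sign changed was 0.26 in size. The count of members passing for HFD in prevention was 3, with 4 (Cyp2c29 added) under cyclic loess and with that model's arrays alone, and 0 with the index in the model; leaving out single arrays it ran from 0 to 3, with 0 without chow replicate 1, chow replicate 3 or HFD replicate 1. For HFD in reversal the count was 3, with 4 (Cyp2c37 added) with all 18 arrays, 2 (without Cyp2c50) under quantile normalisation, cyclic loess and that model's arrays alone, and from 2 to 3 leaving out single arrays. For CMPF on HFD against HFD it stayed at 0 in prevention (0 to 0), and in reversal the 1 call, Cyp2c38, became 0 with probe sets averaged per gene (adjusted p = 0.0630), every probe set (0.0792), quantile normalisation (0.0962), cyclic loess (0.0678), the arrays of that model alone (0.235) and without CMPF arrays 2 and 3 together, and ran from 0 to 1 leaving out single arrays. Against chow, CMPF in prevention stayed at 0 (0 to 0); in reversal 0 became 1, Cyp2c23, with all 18 arrays counted (adjusted p = 0.0349), a filter on the dimmest 60% (0.0428), quantile normalisation (0.0361), cyclic loess (0.0369) and the replicate block (0.0450), and 0 to 1 leaving out single arrays, with 1 without CMPF replicate 1. The difference of the HFD effect had 1 call, which became 2, with Cyp2c50 added, with all 18 arrays, the 60% filter, averaged probe sets, probe sets ending in _s_at or _x_at left out and the replicate block, and 0 with the index; leaving out single arrays gave 0 to 2, with 0 without prevention chow replicate 1 or 3, prevention HFD replicate 3 or reversal HFD replicate 1, and 2 without reversal HFD replicate 2. The difference of the CMPF effect stayed at 0 (0 to 0). The cause of these moves was not tested. To see whether replicate numbers pair samples, each array's deviations from its group mean were correlated between same-numbered arrays of compared groups. These correlations ran from -0.34 to 0.44, over 0.1 in 5 of 14 pairs, so the numbers were not taken to pair samples. The replicate block left the diet counts at 3 in each model and the reversal CMPF count at 1. Where an alternative left 1 sample in a group, that sample was assumed to vary like the other groups. Dim probe sets such as that of Cyp2c55 limit what can be seen.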

Other observations

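The low Cyp2c23 signal on reversal CMPF arrays 2 and 3 had no near equal among the genes tested. The higher of those arrays lay 2.15 (log2) below the lowest of the other 16 arrays. Genes with these 2 arrays both below all others numbered 41 of 13221, 1 of them with a gap over 1, and the next largest gaps were 0.44 for Ncald and 0.32 for Ppfibp2. These genes were chosen after their values were seen. The same 2 arrays did not stand apart for Cyp2c38, at 8.42 and 8.91, against 8.72 on CMPF array 1.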
